A study of Mus musculus with 7 samples.

Results

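Collagen genes of the newborn mouse heart were examined as every row of the deposited expression table whose symbol reads Col, a number, a and a number. This gave 37 genes of the 13788 in the table. The mouse annotation GENCODE release M21 lists 44 genes named in this way, and the 7 others (Col6a4, Col6a5, Col10a1, Col17a1, Col19a1, Col20a1 and Col22a1) were not analysed here. The 37 genes comprised 11 fibrillar collagens, the 6 chains of the basement membrane collagen type IV, and 20 others.

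RNA came from whole hearts of C57BL/6 mice on the day of birth (P0, postnatal day 0). The WT group held wild-type hearts (n = 3, replicates 1, 2 and 28). The edKO group held hearts lacking Rxra and Rxrb in cardiomyocytes, labelled cardiomyocyte-specific RXRab-/- (n = 4, replicates 5, 6, 15 and 33). These genes encode retinoid X receptors, nuclear receptors that pair with many other nuclear receptors on DNA. The labels name neither the Cre driver, nor any allele carried by the WT mice, nor the sex or litter of an animal. The deletion is labelled as specific to cardiomyocytes, so that fibroblasts and the other cells of the edKO heart are not its target. Levels are normalised reads per 1000000, with the SD where a mean is given.

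Collagens are trimeric proteins whose chains coil into a triple helix. Fibrillar types I and III form the load-bearing fibres of the heart and are made mainly by its fibroblasts, with type V as a minor chain that starts and sizes the fibrils. Type IV forms the sheet-like network of the basement membrane around each cardiomyocyte and capillary. Procollagen chains are hydroxylated and folded in the endoplasmic reticulum, exported in enlarged COPII carriers, trimmed outside the cell and cross-linked.

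The regions upstream of the Col15a1 and Col3a1 starts are shown because Col15a1 was the collagen gene that passed the test below and Col3a1 was the most abundant collagen transcript per length. Both are the 250 bases before the RefSeq start on GRCm38.p6, on the plus strand, written 5′ to 3′. The Col15a1 window is chr4:47207762-47208011 and the Col3a1 window is chr1:45311288-45311537. Capitals mark a match to TATAAA, the core of a TATA box.
Col15a1: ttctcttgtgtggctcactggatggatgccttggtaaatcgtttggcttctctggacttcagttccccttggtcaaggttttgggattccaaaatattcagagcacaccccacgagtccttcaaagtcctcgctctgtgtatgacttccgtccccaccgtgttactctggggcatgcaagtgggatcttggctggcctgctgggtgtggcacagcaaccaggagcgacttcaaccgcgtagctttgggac
Col3a1: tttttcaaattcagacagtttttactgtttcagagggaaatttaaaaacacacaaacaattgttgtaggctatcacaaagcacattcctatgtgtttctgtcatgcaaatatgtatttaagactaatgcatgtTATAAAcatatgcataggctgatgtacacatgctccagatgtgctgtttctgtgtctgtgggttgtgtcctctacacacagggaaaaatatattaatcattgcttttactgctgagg
The Col3a1 match began 117 bases before the start (position -117, with -1 the last base before the start). Both strands were searched for this motif, for the CCAAT box, for the GC box with the letters GGGCGG and for AGGTCA, the core sequence bound by retinoid X receptors and their partners. The Col15a1 window held none of the 4 motifs. RefSeq windows were at hand for 29 of the 37 genes, some with more than 1 start, which made 32 windows. Of these, 20 held the GC box against 32.7% of the 32851 windows of all genes, and 11 held the CCAAT box against 33.8%. The receptor core sequence was in 6 against 14.02%, and the TATA box in 3 against 12.4%. These matches describe the letters of the windows and are not measured binding sites.

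The libraries held 12108464 to 24912403 reads over the listed genes, and 3 reads corresponded to 0.122 to 0.262 normalised reads per 1000000, a floor for counting error only. No collagen gene was below it in any library. Rxra stood at 59.3 to 62.8 in WT and 59.5 to 75.5 in edKO, and Rxrb at 45.5 to 51.7 and 34.2 to 44.0. These are totals over whole genes and, with the deleted exons not stated in the labels, they cannot check the deletion. The labelled tissue carried its markers, with 10 cardiomyocyte genes that summed to 49432 to 56285 in WT and 57736 to 64815 in edKO. These sums did not overlap, but 5 of the 10 genes were lower and 5 higher in edKO. The median log2 difference of the 10 was 0.00. Of 10 markers of lung and thymus the table lists the T cell genes Cd4 and Cd8a, which summed to 0.848 to 3.85 in WT and to 2.88, 7.66, 3.41 and 0.855 in edKO replicates 5, 6, 15 and 33. The lung genes Sftpc and Sftpb are not among the genes listed. Xist, which is transcribed in female cells, was at 167 in WT replicate 1, 441 in edKO replicate 5 and 179 in edKO replicate 6, and between 0.034 and 1.93 in the other libraries.

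Per kilobase of the longest protein-coding transcript, the WT hearts contained most of Col3a1, with a level of 386 normalised reads per 1000000 per kb. Col4a1 followed at 220, Col1a2 at 206, Col1a1 at 192 and Col4a2 at 133. Col6a2 (68.3) and Col6a1 (63.2), chains of the microfibril-forming type VI, came next, then Col5a1 (40.0), Col18a1 (37.2), Col5a2 (35.7) and Col15a1 (30.7). The lowest was Col7a1, the anchoring-fibril collagen best known from skin, at 0.177. The fibrillar chains of types I and III and the major type IV chains stood far above the cartilage chains Col2a1 (0.317) and Col11a2 (0.314). Col1a1, Col1a2 and Col4a1 lay close together, and their order changed between libraries. In all, collagen transcripts made up 0.824%, 0.848% and 1.04% of the summed values in the WT hearts (replicates 1, 2 and 28 in this order throughout). They made up 0.536%, 0.803%, 0.613% and 0.940% in the edKO hearts (replicates 5, 6, 15 and 33 in this order throughout).

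Of the 37 collagen genes, Col15a1 alone passed the test, and it was lower in edKO (limma on log2 values, adjusted p under 0.05 over all 13788 genes). Over all genes 4.21% were called, 2.13% lower and 2.08% higher in edKO, so that 1 of 37 lower and 0 of 37 higher lie near that background. At an unadjusted p under 0.05 there were 4 of 37, Col15a1, Col8a2, Col1a1 and Col26a1, all lower, against 19.2% of all genes in either direction and 9.22% lower. Every edKO library was below every WT library for 1 of the 37 (Col15a1), against 9.04% of all genes, and above for 0 of 37, against 8.41%. On reads recovered from the values, edgeR and limma voom called 0 collagen genes and DESeq2 called Col15a1, where DESeq2 called 3.55% of all genes lower.

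The log2 differences (edKO minus WT) of the 37 genes were negative for 27 and positive for 10, from -0.72 to 0.27, with a median of -0.16. Over all genes the median was 0.00, with 6989 negative and 6799 positive. The median was -0.30 for the fibrillar class (7 of 11 negative), -0.08 for the type IV chains (5 of 6 negative) and -0.18 for the 20 other collagens (15 of 20 negative). Without WT replicate 28 the fibrillar median was -0.11 and the type IV median 0.01, and without edKO replicate 5 the fibrillar median was -0.19. Without edKO replicate 15 the type IV median was -0.04. The median of the other collagens was -0.28 without WT replicate 2 and -0.32 without edKO replicate 33. None of the fibrillar or type IV genes passed the test in limma, edgeR, DESeq2 or voom, and at an unadjusted p under 0.05 limma gave 1 fibrillar gene and 0 type IV genes. The difference between the classes was not tested.

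**Figure D1:**
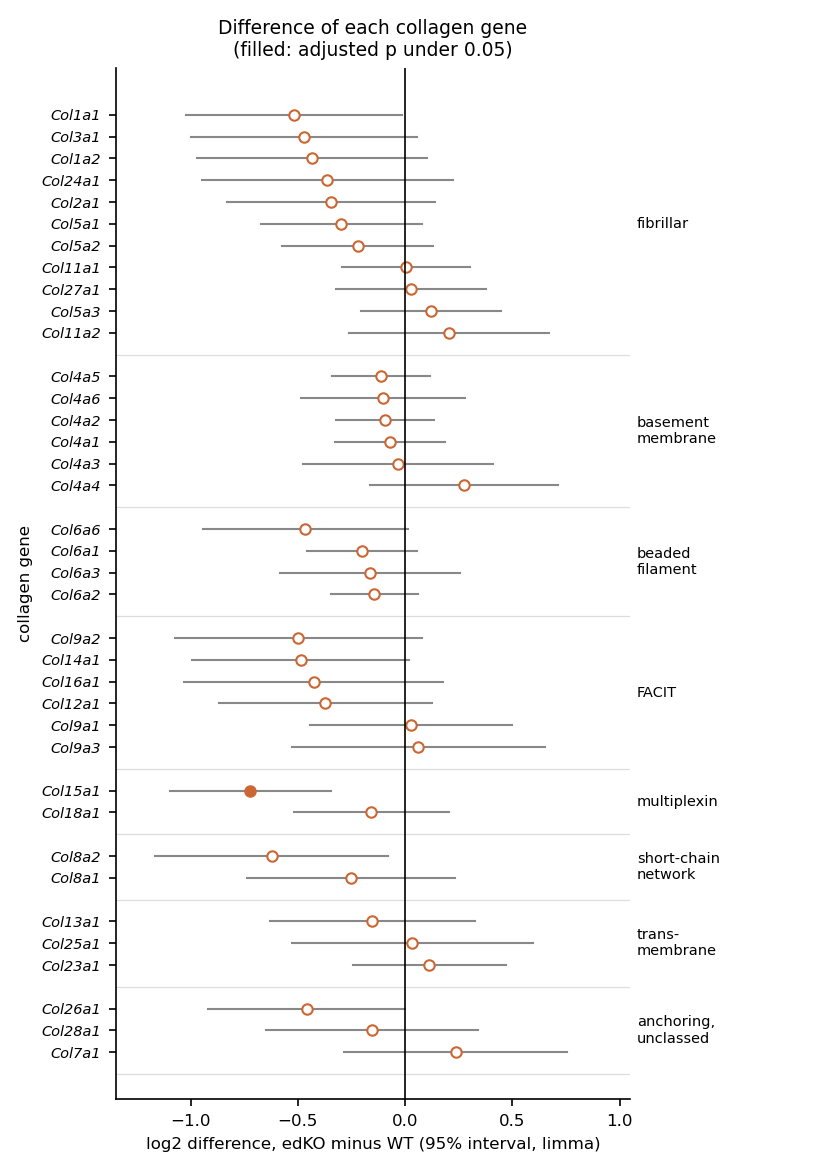
Difference of each of the 37 collagen genes between edKO (n = 4) and WT (n = 3), in log2 units on the horizontal axis, with genes by class on the vertical axis. Points are limma estimates, lines their 95% intervals, and a filled point has an adjusted p under 0.05. Most points lie left of 0, type IV points lie near it, and Col15a1 is the single filled point.

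The libraries of the edKO group did not behave alike. The 37 collagen genes summed to 8577, 8145 and 9828 in the WT hearts and to 5660, 7895, 6183 and 9543 in the edKO hearts. Replicates 5 and 15 were the lowest of all 7 libraries, replicate 6 lay just under the WT range and replicate 33 inside it. Below the lowest WT library were 23 of the 37 genes in edKO replicate 5 (34.0% of all genes), 15 in replicate 6 (30.2%), 24 in replicate 15 (31.5%) and 7 in replicate 33 (31.0%). Above the highest WT library were 7 (33.8% of all genes), 4 (28.9%), 2 (31.9%) and 11 (31.3%). These are descriptions of single libraries and no test was made on them. Replicate 33 was also the deepest library (24912403 reads) and replicate 5 the shallowest (12108464). Any part of depth in these levels was not tested. Xist was at 441 in edKO replicate 5 and at 0.090 in edKO replicate 15. With Xist as a covariate the median log2 difference was -0.27 for fibrillar, -0.08 for type IV and -0.19 for other collagens. In that fit Col15a1 was not called (limma adjusted p = 0.0889). Any part of sex in the collagen levels was not tested.

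**Figure D2:**
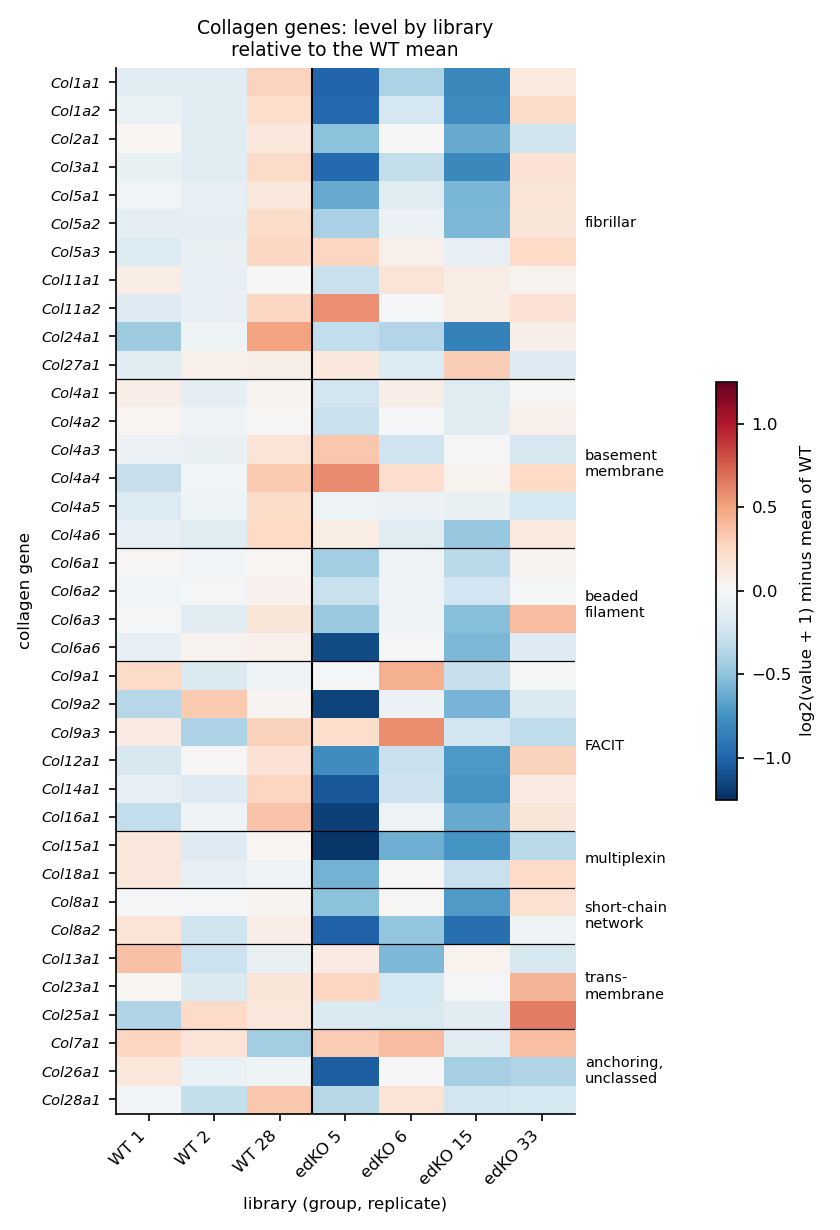
Level of each collagen gene (rows, by class) in each library (columns), as log2(value + 1) minus the WT mean of that gene, blue lower and red higher. The columns of edKO replicates 5 and 15 are blue through most fibrillar, FACIT and multiplexin rows, edKO replicate 33 is pale or red there, and the type IV rows are mostly pale.

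Without edKO replicate 33, limma called 7 collagen genes lower: Col1a1, Col1a2, Col3a1, Col12a1, Col14a1, Col15a1 and Col8a2. Over all genes that fit called 4.29% lower. The limma adjusted p-values were then 0.0055 for Col15a1, 0.0210 for Col1a1, 0.0362 for Col3a1, 0.0404 for Col14a1, 0.0405 for Col8a2 and 0.0449 for Col1a2. That of Col12a1, not given here, was also under 0.05. No type IV gene was called in that fit. This fit, here and for the lists below, was singled out after the values were seen. Replicate 33 was the highest edKO library for each of the 7 called genes, so these calls are not separate support for a fall. Leaving out WT replicate 1, 2 or 28 or edKO replicate 6 or 15 gave 0 collagen genes called lower. Leaving out edKO replicate 5 gave 1. Over the fits that left out a single library the count thus ran from 0 to 7.

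Among the fibrillar collagens, Col3a1, Col1a1 and Col1a2 made up most of the level. Col3a1, the single chain of the type III homotrimer, stood at 1994, 1939 and 2511 in WT and at 1089, 1734, 1224 and 2415 in edKO. Its groups overlapped through edKO replicate 33, and the log2 difference was -0.47 (95% interval -0.999 to 0.05, limma adjusted p = 0.311). Col1a1, the chain present in a pair of copies in each type I molecule, was at 1029, 1019 and 1363 in WT and at 565, 856, 645 and 1222 in edKO. The log2 difference of Col1a1 was -0.52 (95% interval -1.02 to -0.02, limma adjusted p = 0.244), and edKO replicate 33 lay inside the WT range. Col1a2, the other chain of type I, was at 1035, 1002 and 1274 in WT and at 559, 945, 637 and 1290 in edKO. For Col1a2 edKO replicate 33 was the highest of the 7 libraries, and the log2 difference was -0.43 (95% interval -0.97 to 0.10, limma adjusted p = 0.362).

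These 3 chains moved together from library to library. The ratio of Col1a1 to Col1a2 per kilobase ran from 0.897 to 0.965 in WT and from 0.817 to 0.914 in edKO. That of Col3a1 to Col1a1 ran from 1.96 to 2.07 in WT and from 2.02 to 2.16 in edKO, so within each group both ratios stayed within a narrow span while the level of Col3a1 itself ranged from 1089 to 2415 in edKO. Against the type IV chain Col4a1, the ratio of Col3a1 was 1.54 to 2.004 in WT and, in edKO replicates 5, 6, 15 and 33, 1.04, 1.34, 1.11 and 1.96. The ratios for 3 of these libraries lay below the WT range and that of replicate 33 within it.

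Of the other fibrillar genes, Col5a1 and Col5a2, the type V chains that control fibril width, had means of 336 ± 30.9 and 236 ± 34.5 in WT and 279 ± 73.9 and 205 ± 45.8 in edKO. Their log2 differences were -0.30 and -0.22, and both groups overlapped. The remaining 6 were at mean levels of 1.079 to 15.9 in either group, with log2 differences from -0.36 (Col24a1) to 0.21 (Col11a2). Col11a2 starts 1037 bases beyond the annotated end of Rxrb on the same strand of chromosome 17. Its levels were 1.58, 1.68 and 2.44 in WT and 3.27, 1.84, 2.07 and 2.26 in edKO, with overlapping groups (limma adjusted p = 0.638).

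Summed over the class, the fibrillar genes reached 5009 ± 730 in WT and 3827 ± 1345 in edKO. The sum in edKO replicates 5, 6, 15 and 33 was 53.0%, 82.0%, 58.6% and 112% of the WT mean. The type IV sum was 2461 ± 134 in WT and 2333 ± 212 in edKO, and in the same replicates 85.0%, 103%, 90.3% and 101% of the WT mean. The 20 other collagens reached 66.3%, 91.2%, 74.3% and 104%. In edKO replicates 5 and 15 all 3 classes were under the WT range. Relative to the WT mean, the fibrillar sum was the furthest below and the type IV sum the least. The fibrillar genes made up 56.6% of the collagen sum in WT and 52.3% in edKO, and the type IV genes 27.8% and 31.9%.

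**Figure D3:**
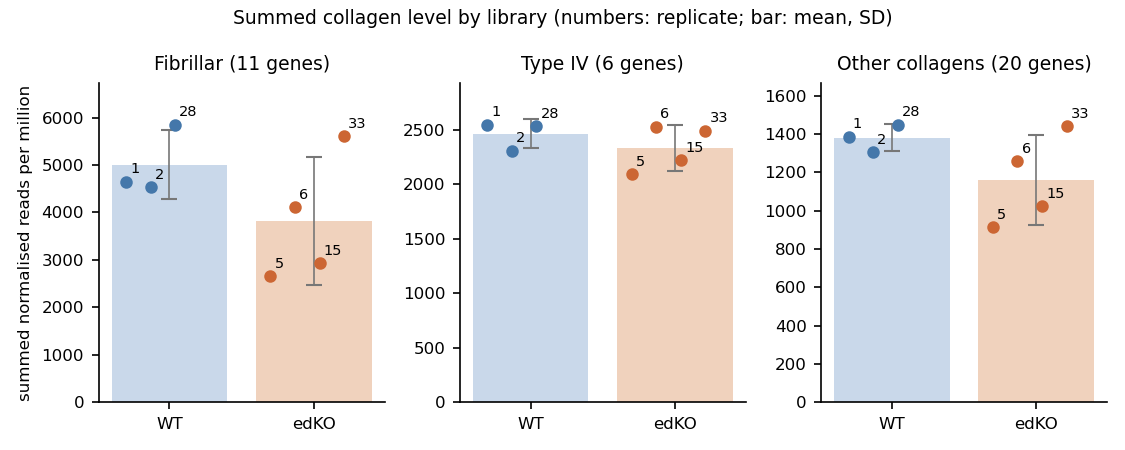
Summed level of the fibrillar, type IV and other collagens, in normalised reads per 1000000, for each library (points, numbered by replicate), with the group mean (bar) and SD. For the fibrillar class edKO replicates 5 and 15 sit at 2655 and 2937, below all WT libraries (4532 to 5850), while replicate 33 sits at 5611.

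Col4a1 and Col4a2, the chains of the type IV network found in all basement membranes, are arranged head to head on chromosome 8 with annotated starts that overlap by 22 bases. Col4a1 was at 1544, 1336 and 1489 in WT and at 1240, 1543, 1310 and 1466 in edKO. Col4a2 was at 871, 831 and 868 in WT and at 704, 846, 776 and 895 in edKO. Both groups overlapped, with log2 differences of -0.07 (95% interval -0.33 to 0.19) and -0.09 (-0.32 to 0.14). The ratio of Col4a1 to Col4a2 per kilobase was 1.57 to 1.73 in WT and 1.597 to 1.78 in edKO. A missed threshold does not show equal levels. Both intervals overlapped that of Col3a1 (-0.999 to 0.05), and the difference between these genes and Col3a1 was not tested.

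The remaining type IV chains were lower. Col4a5 and Col4a6, neighbours on the X chromosome, were at 128 ± 18.8 and 12.8 ± 2.15 in WT and at 118 ± 5.69 and 11.9 ± 2.33 in edKO. Col4a3 and Col4a4, the chains known from kidney and ear, had means of 2.56 to 5.38 in both groups. Among the 6 chains Col4a4 was the 1 with a positive log2 difference (0.27), and none passed the test (limma adjusted p from 0.488 to 0.949).

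Col15a1 and Col18a1 are the multiplexins, collagens with an interrupted triple helix that carry heparan or chondroitin sulphate and lie at the outer face of basement membranes. Col15a1 (ENSMUSG00000028339, GRCm38 chromosome 4, 47208161 to 47313167, plus strand) was at 174, 141 and 161 in the WT hearts. In the edKO hearts it was at 67.6, 103, 94.6 and 125, so that all 4 lay below all 3 WT libraries. The mean went from 159 ± 16.7 to 97.6 ± 23.8. On the log2 scale of the test the fall was 1.65-fold (log2 difference -0.72, 95% interval -1.10 to -0.35, limma adjusted p = 0.03985). An exact permutation test over the 35 assignments of libraries gave a 2-sided p of 0.0571, where the smallest possible is 0.0286. The call did not hold widely: the adjusted p was 0.0423 without edKO replicate 5 and 0.0055 without edKO replicate 33, but 0.0504 to 0.159 on leaving out any of the 5 other libraries, and 0.0505 with edgeR and 0.0559 with voom.

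Col18a1, the source of the fragment endostatin, was at 230, 194 and 201 in WT and at 138, 207, 171 and 244 in edKO. Its groups overlapped (log2 difference -0.16, 95% interval -0.52 to 0.20, limma adjusted p = 0.645). The ratio of Col15a1 to Col18a1 per kilobase, looked at after the values were seen, was 0.819, 0.787 and 0.868 in WT and 0.531, 0.539, 0.598 and 0.554 in edKO. The ratio in every edKO library was below that in every WT library, edKO replicate 33 included, although the levels of both genes in that replicate were the highest of the edKO group. Col15a1 itself had been chosen as a called gene with its groups apart, so the ratio is not separate support.

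**Figure D4:**
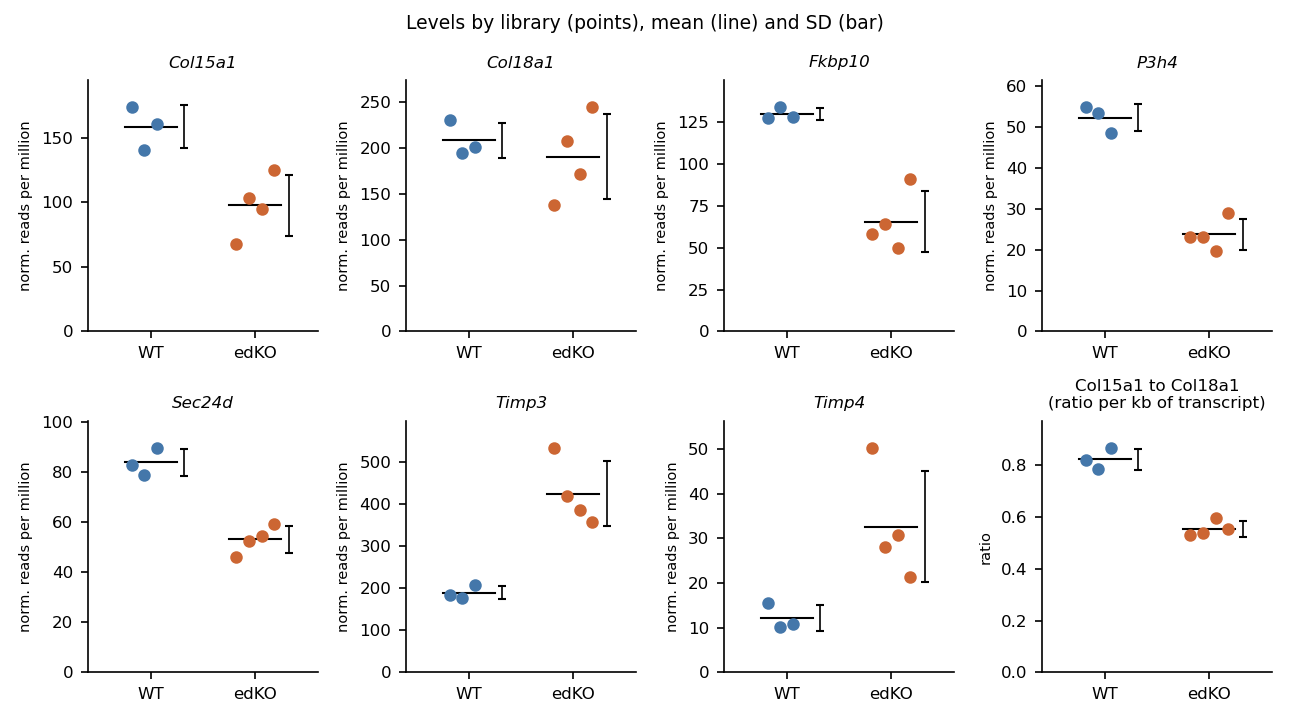
Level in each library (points), group mean (line) and SD (bar) of the multiplexins Col15a1 and Col18a1, of Fkbp10, P3h4, Sec24d, Timp3 and Timp4, and of the Col15a1 to Col18a1 ratio. The edKO and WT points are apart for every panel except Col18a1, and the other genes shown were chosen because limma called them.

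The beaded-filament collagen of type VI links cells to the fibres around them, and its 4 measured chains had log2 differences from -0.47 to -0.14. Col6a2 was at 310, 314 and 329 in WT and at 262, 307, 269 and 315 in edKO, with overlapping groups (log2 difference -0.14, limma adjusted p = 0.434). Col6a1 and Col6a3 had differences of -0.20 and -0.17. Col6a6, a less abundant chain, was at 39.2, 43.4 and 43.9 in WT and at 18.8, 41.5, 28.2 and 37.6 in edKO (log2 difference -0.47, limma adjusted p = 0.273).

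The FACIT collagens sit on the surface of fibrils, and the highest of them was Col14a1, which limits the lateral growth of fibrils. It was at 131, 126 and 170 in WT and at 67.1, 118, 84.1 and 152 in edKO. Only edKO replicate 33 lay inside the WT range, and the log2 difference was -0.49 (95% interval -0.995 to 0.02, limma adjusted p = 0.278). The 5 other FACIT genes ran from -0.50 (Col9a2) to 0.06 (Col9a3), and Col12a1 (-0.37) and Col16a1 (-0.43) were lowest in the same libraries, edKO replicates 5 and 15. The median over the 6 was -0.40.

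Col8a1 and Col8a2, short-chain collagens of endothelial and vascular matrix, were both low. Col8a2 was at 5.74, 4.02 and 5.35 in WT and at 1.96, 3.29, 2.12 and 4.79 in edKO (log2 difference -0.62, unadjusted p = 0.0284, limma adjusted p = 0.198). Col8a1 was at 6.36, 6.36 and 6.65 in WT and at 4.23, 6.54, 3.56 and 7.51 in edKO (log2 difference -0.25, limma adjusted p = 0.572). In both genes edKO replicates 5 and 15 were lowest and replicate 33 highest of the edKO group.

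The transmembrane collagens did not share that order. Col23a1 was at 18.9, 16.3 and 20.8 in WT and at 22.6, 15.9, 18.2 and 25.4 in edKO, with overlapping groups (log2 difference 0.11, limma adjusted p = 0.747). Col13a1 and Col25a1 had differences of -0.15 and 0.03. Of the 3 remaining genes, Col26a1 was at 16.7, 14.2 and 14.4 in WT and at 6.85, 14.98, 11.04 and 11.3 in edKO (log2 difference -0.46, limma adjusted p = 0.259). Col7a1 and Col28a1 had differences of 0.24 and -0.15 at mean levels of 1.62 to 2.07, which left their groups overlapping.

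Genes that fold and export procollagen were looked at next. Of 23 biosynthesis and secretion genes, 3 fell, P3h4, Fkbp10 and Sec24d, and none rose, against 2.13% of all genes lower. All 3 calls held on leaving out any of the 7 libraries, and edgeR, DESeq2 and voom made them too. Without edKO replicate 33, limma called 7 of the 23 lower, against 4.29% of all genes. P3h4 (listed as Leprel4), which forms a complex for lysine hydroxylation of procollagen, was at 55.0, 53.4 and 48.6 in WT and at 23.2, 23.1, 19.8 and 29.0 in edKO. It fell 2.17-fold (log2 difference -1.12 ± 0.13 SE, limma adjusted p = 6.5e-04). Fkbp10, a prolyl isomerase and chaperone of procollagen, was at 127, 134 and 128 in WT and at 57.8, 63.8, 49.5 and 91.1 in edKO. It fell 2.01-fold (log2 difference -1.01 ± 0.16 SE, limma adjusted p = 0.0064). P3h4 and Fkbp10 are neighbours on chromosome 11, pointing away from each other, with 860 bases between their annotated starts.

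Sec24d, a COPII coat subunit needed for procollagen export, was at 83.0, 78.9 and 89.7 in WT and at 46.0, 52.6, 54.4 and 59.5 in edKO (log2 difference -0.65 ± 0.10 SE, limma adjusted p = 0.0049). For these 3 genes edKO replicate 33 was the highest edKO library and still below every WT library. All edKO libraries lay below all WT libraries for 4 of the 23 genes, against 9.04% of all genes. Serpinh1, the collagen chaperone HSP47, was at 594, 602 and 516 in WT and at 376, 483, 457 and 555 in edKO, and the P3h enzymes P3h1 and P3h3 had log2 differences of -0.33 and -0.27. None of these passed the test (limma adjusted p from 0.173 to 0.251). The ratio of Fkbp10 to Serpinh1 per kilobase, also looked at after the values were seen, was 0.188 to 0.218 in WT and 0.0955 to 0.144 in edKO, and that of P3h4 to P3h1 was 1.598 to 1.80 and 0.933 to 1.046. Neither pair of ranges overlapped. Fkbp10 and P3h4 were chosen as called genes whose groups were already apart, so these ratios are not separate support.

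Of 25 genes for procollagen trimming, cross-linking and breakdown, limma called Timp3 and Timp4 higher and none lower. Over all genes it called 2.08% higher and 2.13% lower. At an unadjusted p under 0.05, 6 of the 25 were lower and 3 higher, against 9.22% of all genes lower and 19.2% in either direction. In edgeR and voom Timp3 and Timp4 were higher and none lower, while DESeq2 also called Tgm2 higher and Mmp15 lower. DESeq2 called 3.55% of all genes lower. Without edKO replicate 33, limma called Adamts2, Loxl1 and Mmp14 lower, against 4.29% of all genes. Timp3 and Timp4 encode inhibitors of the matrix metalloproteinases. Timp3 was at 185, 177 and 208 in WT and at 533, 419, 386 and 357 in edKO (log2 difference 1.14 ± 0.13 SE, limma adjusted p = 6.6e-04). Of the 61-base stretches of its transcripts, 20.9% also occur in transcripts of another gene, mostly Syn3, so reads could be shared between them. Timp4 was at 15.6, 10.2 and 10.8 in WT and at 50.2, 27.9, 30.8 and 21.4 in edKO (log2 difference 1.302 ± 0.24 SE, limma adjusted p = 0.0132). Its adjusted p was 0.0767 without WT replicate 2 and 0.0751 without WT replicate 28. Tgm2, a cross-linking transglutaminase, had groups that did not overlap (log2 difference 0.56) and did not pass in limma (adjusted p = 0.0549). Every edKO library was above every WT library for 3 of the 25 genes, against 8.41% of all genes. It was below for 2, against 9.04%.

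None of the 9 collagen receptors measured was called by limma, edgeR, DESeq2 or voom. In limma 3 of the 9 had an unadjusted p under 0.05, against 19.2% of all genes. The integrin chain Itgb1 was at 722 ± 19.6 in WT and 767 ± 18.9 in edKO (log2 difference 0.09), and the receptor kinase Ddr1 at 128 ± 22.7 and 115 ± 6.47 (log2 difference -0.15). Of 15 further basement membrane genes none was called by limma, edgeR or voom, with 3 at an unadjusted p under 0.05 in limma (19.2% of all genes). DESeq2 called Lama2 lower, against 3.55% of all genes. Hspg2, encoding perlecan, was at 648 ± 38.8 and 596 ± 76.5, and the laminin chain Lamb1 at 396 ± 13.7 and 400 ± 31.5.

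The 25 other genes of the interstitial matrix included none called by limma, edgeR, DESeq2 or voom. At an unadjusted p under 0.05 in limma there were 2, against 19.2% of all genes. Of the log2 differences of the 25 genes 23 were negative and 2 positive, with a median of -0.29 beside 0.00 for all genes. Their sum in edKO replicates 5, 6, 15 and 33 was 68.1%, 87.8%, 67.1% and 114% of the WT mean, again lowest in replicates 5 and 15 and highest in replicate 33. Sparc, which binds collagen, was at 2060, 1822 and 1934 in WT and at 1402, 1713, 1416 and 2161 in edKO (log2 difference -0.23, limma adjusted p = 0.45). Postn, encoding the fibril-associated protein periostin, was at 1230, 1127 and 1331 in WT and at 803, 1011, 782 and 1502 in edKO (log2 difference -0.31, limma adjusted p = 0.429). Without edKO replicate 33, limma called 9 of the 25 lower, against 4.29% of all genes.

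Of 16 genes for TGF-beta ligands, receptors, binding proteins and signalling, limma, edgeR and voom called Ctgf higher and none lower, against 2.08% of all genes called higher and 2.13% lower by limma. In limma 2 of the 16 were lower at an unadjusted p under 0.05, against 9.22% of all genes. DESeq2, and limma without edKO replicate 33, also called Ltbp1 lower, against 3.55% and 4.29% of all genes called lower. Ltbp1 encodes a protein that binds latent TGF-beta. In every edKO library Ltbp1 was below every WT library (log2 difference -0.32, limma adjusted p = 0.0599), against 9.04% of all genes. TGF-beta is the best-known inducer of fibrillar collagen genes, and Ctgf is among its classical targets. Ctgf was at 87.8, 136 and 110 in WT and at 379, 248, 328 and 244 in edKO (log2 difference 1.42 ± 0.18 SE, limma adjusted p = 0.0012). For Ctgf every edKO library, replicate 33 included, was above every WT library, against 8.41% of all genes. Of the 61-base stretches of its transcripts, 16.1% also occur in another annotated gene, mostly Gm15270. The ligands Tgfb1, Tgfb2 and Tgfb3 had differences of -0.05, -0.25 and 0.03.

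**Figure D5:**
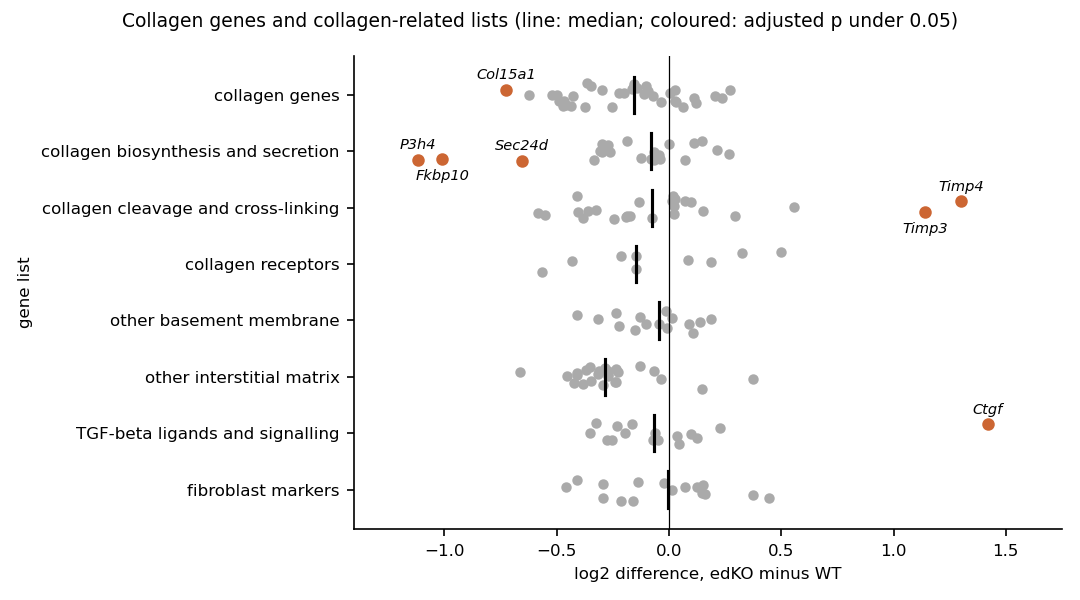
Log2 difference between edKO and WT (horizontal axis) of each measured gene of the collagen genes, the collagen-related lists and the fibroblast markers (rows). Vertical lines are list medians and coloured, named points have an adjusted p under 0.05. The interstitial matrix row lies almost wholly left of 0 without a coloured point, while P3h4, Fkbp10 and Sec24d lie apart from the rest of the biosynthesis row.

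In these bulk samples, fewer cells of a type and less RNA per cell cannot be told apart. The 16 fibroblast markers included none called by limma, edgeR, DESeq2 or voom, with a median log2 difference of 0.00. At an unadjusted p under 0.05 in limma there were 2 of the 16, against 19.2% of all genes. Without edKO replicate 33, limma called 3 of the 16 lower (Dpt, Lum and Meox1), against 4.29% of all genes. The 16 markers summed to 2343 to 2595 in WT and 2275, 2454, 2146 and 3098 in edKO replicates 5, 6, 15 and 33. Replicates 5 and 15 were again the lowest and replicate 33 the highest. Pdgfra, a receptor that defines fibroblasts, was at 57.3, 49.5 and 67.0 in WT and at 50.9, 55.2, 44.7 and 55.5 in edKO. The fibroblast transcription factor Tcf21 was at 39.3, 41.6 and 38.4 in WT and at 48.1, 42.8, 41.2 and 42.2 in edKO. Lum and Dcn, matrix proteoglycans that fibroblasts secrete, had differences of -0.41 and -0.29 and were lowest in edKO replicates 5 and 15.

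Some markers of other cells also varied among these libraries. Of the 10 cardiomyocyte markers 5 had a negative and 5 a positive log2 difference, with a median of 0.00. The cardiomyocyte gene given here was picked after its values were seen and does not stand for that list. Myl7, the atrial myosin light chain, was at 577, 756 and 1015 in WT and at 477, 311, 274 and 1285 in edKO, with edKO replicate 33 the highest of all and the 3 others below the WT range. The 10 endothelial markers summed to 1329 to 1680 in WT and 1471 to 1781 in edKO, and 10 smooth muscle and pericyte markers to 1573 to 2381 and 1606 to 1949. The 8 epicardial markers summed to 213 to 239 in WT and, in edKO replicates 5, 6, 15 and 33, to 189, 198, 166 and 283. Of these 8, limma called Aldh1a2 lower and Tbx18 higher (adjusted p = 0.0146 and 0.0080), against 2.13% of all genes lower and 2.08% higher. Valve markers summed to 49.3 to 63.5 in WT and 51.7 to 72.3 in edKO, and the 5 cartilage markers measured to 27.4 to 40.3 and 25.7 to 38.6. Limma on all libraries called none of the endothelial, smooth muscle, valve, cartilage, macrophage or Schwann cell markers. Among the 10 of cardiomyocytes it called Myh7 higher, against 2.08% of all genes. Without edKO replicate 33, it called 3 of the 8 epicardial markers lower and 1 higher. That fit also called Cnn1, Cthrc1 and Myl7 lower and Myh7 and the Schwann cell marker Erbb3 higher. Over all 13788 genes it called 1177, with 592 (4.29%) lower. Of the fibroblast markers, Mfap5, Dcn and Lum are also in the interstitial matrix list, Fap in the breakdown list and Ddr2 in the receptor list. The part of these markers in the collagen levels was not tested.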

How the data were processed

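RNA-seq of 3 WT and 4 edKO newborn hearts was used. Per the labels' protocols, cDNA of biological replicates was amplified (Ovation RNA-seq System v2) and sequenced as single 61-base reads. RSEM 1.3.1, cutadapt, limma and GRCm38 are named in the submitters' processing notes, with neither annotation release nor read strand. The signal values, as deposited, are normalised reads per 1000000. Each equals reads plus 0.5, over an effective library size, and 100% of 96516 values came out whole within 1e-06. No listed gene had under 1 read per 1000000 in more than 4 libraries, so rarer genes were not analysed here.

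Differences were tested with limma 3.58.1 (R 4.3.3) on log2(value + 1), with a variance trend, all 7 libraries, 2-sided, Benjamini-Hochberg adjusted over 13788 genes. Such differences understate changes of low genes. On the recovered reads edgeR 4.0.16 called 534 genes, DESeq2 1.42.0 1052 and voom 429. The fits were tested on simulated data. Levels between genes were compared per kilobase of the longest protein-coding transcript of GENCODE M21, which held 99.5% of the gene identifiers, and promoters came from RefSeq. Named genes were those called, the most abundant of each class or list, and collagens at an unadjusted p under 0.05; others, including the markers and comparison genes (such as Serpinh1, P3h1, Col5a1 and Col6a6), were named after their values were seen. The collagen genes and lists were chosen with earlier results of these data known, and 1 gene of the TGF-beta list is not reported here. Alternatives were pseudocounts of 0.1 and 5, a minimum mean of 1, no trend, quantile normalisation, median centring, Xist as covariate, the 3 other tools and leaving out each library.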

Additional observations from a re-analysis of the deposited data

Results flagged for a closer look

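Within the 4 edKO libraries 2 of the 53 groups of values examined held a library far from the rest, and chance flags about 1 in 20 groups. Col25a1, a transmembrane collagen of neurons, was at 4.38 normalised reads per 1000000 in edKO replicate 33, against 2.02 to 2.12 in the other edKO libraries and 1.66 to 3.06 in WT. Col7a1 was at 1.35 in edKO replicate 15, against 2.22 to 2.38 in the other edKO libraries and 0.909 to 2.12 in WT. Neither gene passed the test between the groups.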

How the results depend on the processing

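The number of collagen genes called lower was 1 in the reported fit and 0 with no variance trend, quantile normalisation, Xist as a covariate, edgeR or voom. It was 1 with both pseudocounts, the minimum mean, median centring and DESeq2. On leaving out each library it ran from 0 to 7, with 7 without edKO replicate 33, and the adjusted p of Col15a1 ran from 0.0025 to 0.159 over all alternatives. The cause of these changes was not tested. No collagen gene was called higher under any setting. The pathway lists held 3 genes called lower, 6 with DESeq2, and 3 to 20 on leaving out each library, with 5 without edKO replicate 6 and 20 without edKO replicate 33. Over all genes limma called 580, against 370 with no trend, 364 with Xist as a covariate, 1052 with DESeq2, and 222 to 1177 on leaving out each library. The fibrillar median ran from -0.38 to -0.11 on leaving out each library, the type IV median from -0.12 to 0.01, turning positive without WT replicate 28, and the median of the other collagens from -0.32 to -0.14. The alternatives were run for the genes that the naming rule took, and none of these changed direction except Lamb1, uncalled in every fit, whose log2 difference of 0.01 was -0.01 without WT replicate 1 and -0.03 without edKO replicate 6. Of the values of these genes under an alternative, 407 kept their side of the threshold, 12 lost a call and 6 gained one. The 10 lost calls of Col15a1 came from the 5 settings above with a count of 0 and 5 of the 7 left-out libraries, and the other 2 were of Timp4 without WT replicate 2 or 28. No paired analysis was made, because the labels give neither litter nor any other pairing of WT with edKO animals.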
